A study of Rattus norvegicus with 16 samples.

Results

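The 8 genes described here encode proteins that fold newly made proteins in the endoplasmic reticulum. They are the chaperones Hspa5, Hsp90b1, Hyou1, Calr and Canx and the disulfide isomerases Pdia3, Pdia4 and Pdia6. They were taken as every probe set whose platform symbol is one of these names, which gave 13 of the 972 gene probe sets on the array and 8 of its 549 singly named genes. Canx had 5 probe sets, Hyou1 had 2 and the other 6 genes had 1 each. Those of Hspa5, Calr and Pdia3 end in _s_at, the maker's mark for probes that may match more than 1 transcript, so their values are uncertain in that respect. The cells were NG108, which the labels call rat neuronal and which is known to combine a mouse neuroblastoma with a rat glioma. Per the labels, 8 samples were cells given 0.25% dimethyl sulfoxide (DMSO) and 8 were cells given 4400 ng/ml of mefloquine, an antimalarial drug, each for 2 hours. The labels leave unsaid whether DMSO was also in the mefloquine medium. The question here is how the transcripts of these genes differ between the treatments.

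The endoplasmic reticulum is where secreted and membrane proteins are folded. Hsp70 and Hsp90 type chaperones hold unfolded chains there, calnexin and calreticulin bind chains through their sugars, and disulfide isomerases form and rearrange the bonds between cysteines. When unfolded protein accumulates, the unfolded protein response raises transcription of these genes, mainly through the factors ATF6 and XBP1. These act at a promoter sequence called the endoplasmic reticulum stress response element (ERSE), which was itself defined on promoters of such chaperone genes. A separate branch, through the kinase PERK and the factor ATF4, raises the stress factor CHOP, the product of Ddit3. Neurons and glia, like other cells, express these chaperones without stress.

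The promoters are shown because 5 of the 8 members held the element or its shorter form. The element was defined on promoters of such chaperone genes, so matches in the members are not an independent result. RefSeq start sites on the rat build GRCr8 were matched by symbol for 6 of the 8 members, all but Pdia3 and Pdia6. Each window ran from 250 bases before to 50 bases after the start, and both strands were searched for exact matches. ERSE was searched as CCAAT, any 9 bases, then CCACG, and its shorter form ERSE-II as ATTGG, any 1 base, then CCACG. Among the members no match of one overlapped a match of the other. Of the 6 members 4 held ERSE and 1 held ERSE-II, beside 21 and 17 of the 27457 genes with a window, members included. Counted by window instead of by gene, these were 0.0657% and 0.0508% of 33469 windows (0.117% for either). Of the 549 array genes 439 had a window, and the 5 that held either motif were all members. A match is a description of these letters, not evidence of a working site. The stretches with matches follow, read 5′ to 3′ on the gene's strand, with the fixed bases of each match in capitals. They lie on chr3:38452953-38453011 (plus strand) for Hspa5, chr7:23012327-23012489 (minus) for Hsp90b1, chr8:53602674-53602824 (plus) for Hyou1, chr19:40213117-40213173 (plus) for Calr and chr10:35158049-35158107 (minus) for Canx, all upstream of the start.
Hspa5: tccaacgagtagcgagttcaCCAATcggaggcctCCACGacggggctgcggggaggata
Hsp90b1: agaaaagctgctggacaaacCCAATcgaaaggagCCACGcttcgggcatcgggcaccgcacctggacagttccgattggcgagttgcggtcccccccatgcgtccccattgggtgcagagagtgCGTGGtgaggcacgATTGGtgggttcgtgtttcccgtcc
Hyou1: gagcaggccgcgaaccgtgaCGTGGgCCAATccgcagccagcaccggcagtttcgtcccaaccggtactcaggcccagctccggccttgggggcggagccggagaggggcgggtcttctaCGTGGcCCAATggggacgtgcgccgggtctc
Calr: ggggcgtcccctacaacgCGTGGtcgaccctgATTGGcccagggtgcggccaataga
Canx: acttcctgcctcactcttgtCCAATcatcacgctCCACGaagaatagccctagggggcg

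The match in Hspa5 ran from position -43 to -25 relative to the start, the nearest of all. Hsp90b1 held a pair of matches, at -176 to -158 and -72 to -54, pointing in opposite directions. Hyou1 held 2 matches to ERSE-II, at -188 to -178 and -88 to -78, in the first of its 2 windows. The single matches of Calr and Canx ran from -232 to -214 and from -230 to -212. The Canx start used is that of the promoter table, downstream of the gene's outermost annotated start. These exact letters were not in the window of Pdia4 or in that of Ddit3.

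**Figure D1:**
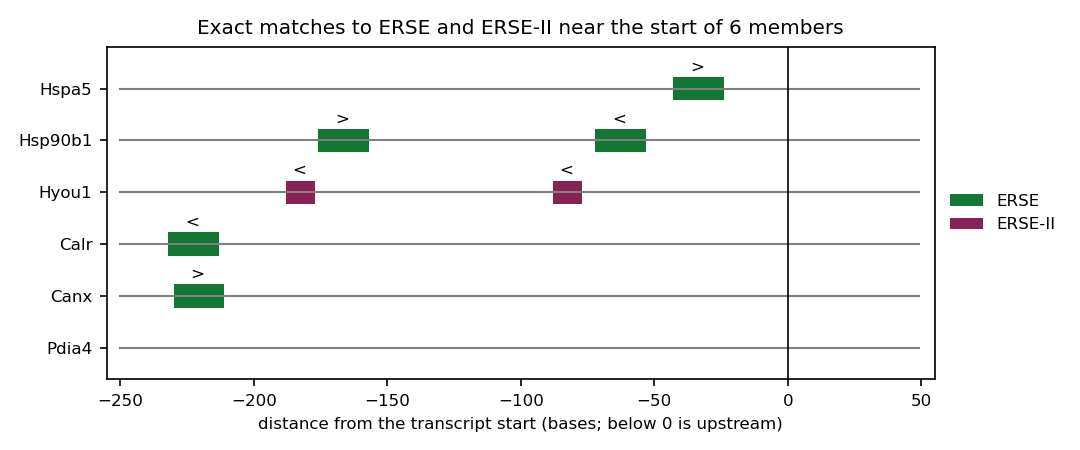
Positions of exact ERSE (green) and ERSE-II (purple) matches along the promoter window of 6 members, in bases from the transcript start at 0; arrowheads give the strand of the match. Hspa5, Hsp90b1, Hyou1, Calr and Canx each hold at least 1 match upstream of the start, and Pdia4 holds none.

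The arrays had median gene intensities between 461 and 665, and 495 to 552 of the 972 gene probe sets on each lay above the floor of 426.5 intensity units used below. DMSO control 3 stood apart: the ratio of 3′ over 5′ control probe sets, which is higher where transcripts are read mainly from their 3′ ends, was 21.3 for beta-actin and 4.62 for GAPDH. On the other 15 arrays these ratios lay between 1.31 and 2.67 and between 1.02 and 1.48. The median of its correlations with other arrays was 0.855, against 0.901 and 0.913 for mefloquine 1 and 2 and 0.925 to 0.945 for the remaining 13. Values without DMSO control 3, and in places without all 3, stand beside those on all arrays. None of the 16 neuronal markers sought had a probe set in the table, so the neuronal label was not checked by them. Of 10 glial markers Vim and Clu were measured, above the floor on all 16 arrays, and neither passed the test. Of 7 fibroblast and muscle markers Col1a1 was above the floor on 16 arrays by Z78279_g_at and on 15 by Z78279_at, and did not pass. Col3a1 was above it on 0. These markers were not used to name the cells. The probes are for rat sequences, and how well they read mouse transcripts of the hybrid was not tested.

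No member passed the test for a change with mefloquine. All 13 probe sets were bright enough to be tested, and 0 had a limma p that stayed under 0.05 after Benjamini-Hochberg adjustment over the 545 tested probe sets, where 1.28% of all tested probe sets passed. Their adjusted p-values lay between 0.982 and 0.998. At an unadjusted p under 0.05 there were also 0 of 13, against 4.22% of all tested. The differences, mefloquine minus DMSO on the log2 scale, ran from -0.33 to 0.38, with a median of -0.05 beside -0.01 over all tested probe sets. Of the 13 differences 8 were below 0, and 53.6% of all differences were. For 11 of the 13 the 95% interval lay within a 2-fold change in either direction, and 87.7% of all tested probe sets met this. The exceptions were Hsp90b1 and Calr, whose intervals reached a 2.43-fold and a 2.11-fold rise. The interval of the dim Hyou1 probe set U41853_at, which was at the floor on 5 arrays, depended on the floor: with the floor at the 10th percentile its log2 difference was -0.46 with an interval from -1.24 to 0.32. With that floor 10 of the 13 intervals lay within 2-fold. In such bulk samples of a single cell line, a change in part of the cells and a smaller change in all of them cannot be told apart. For 5 of the 13 the interval lay within 1.5-fold, as it did for 52.1% of all tested.

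Without DMSO control 3 the count that passed was again 0 of 13 (limma, background 1.1%), with adjusted p-values from 0.516 to 0.994. All 13 intervals then lay within a 2-fold change, against 86.4% of all tested, and 9 within 1.5-fold, against 56.3%, with U41853_at again counted on values set to the floor. Of the differences 12 were below 0, against 62.2% of all tested, and the medians were -0.13 and -0.05. One probe set, of Hyou1, then had an unadjusted p under 0.05 (background 8.07%). When mefloquine 1 and 2 were left out as well, 0 of 13 passed (limma, background 0.917%) and the same Hyou1 probe set alone had an unadjusted p under 0.05 (background 5.32%). All 13 intervals lay within 2-fold (background 89.2%) and 12 within 1.5-fold (background 64%). Of the differences 5 were below 0 (background 61.7%), and the median was 0.02. The sign of the members' median thus turned with the arrays that were used.

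**Figure D2:**
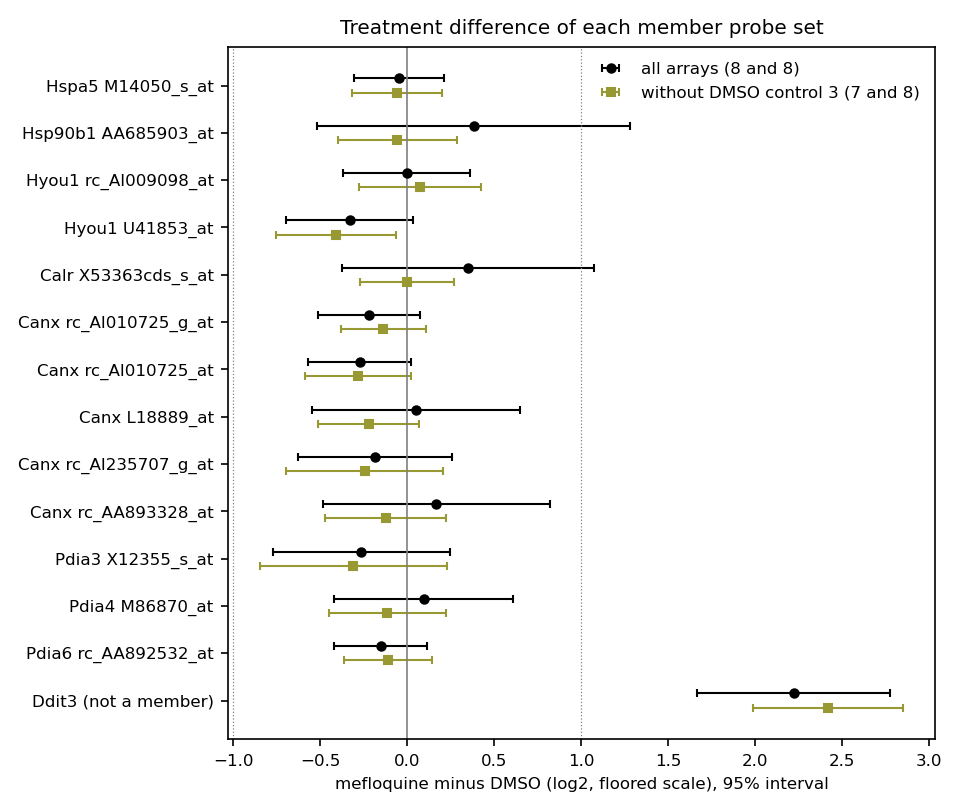
Log2 difference, mefloquine minus DMSO, of each of the 13 member probe sets and of Ddit3, with 95% intervals from limma, on all 16 arrays (black) and without DMSO control 3 (olive); dotted lines mark a 2-fold change. Without DMSO control 3 the intervals of Hsp90b1 and Calr narrow and their differences go from 0.38 to -0.06 and from 0.35 to -0.00, while the lower bound of Ddit3 is 1.67 on all arrays.

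Hspa5 encodes the Hsp70 type chaperone BiP, which also holds the stress sensors inactive in unstressed cells. Its intensity on the 8 DMSO arrays had a lowest value of 11985, a median of 13280 and a highest of 15511. On the 8 mefloquine arrays these were 10399, 12439 and 17516. The groups overlapped: mefloquine 7 was above the highest DMSO array and mefloquine 1, 2, 5 and 6 were below the lowest. The means were 13352 ± 1175 and 13092 ± 2616 (SD, n = 8 each), and the log2 difference was -0.05 ± 0.12 (SE). The exact permutation test over all 12870 divisions of the arrays gave p = 0.663, two-sided as are the other exact tests here. The 95% interval ran from a 0.81-fold to a 1.16-fold level, the narrowest among the 13 on all arrays, and DMSO control 3 lay inside the range of the other DMSO arrays.

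Hsp90b1, the Hsp90 type chaperone of the compartment, was measured by AA685903_at. Its DMSO values had a lowest of 1188, a median of 14443 and a highest of 16279, and its mefloquine values a lowest of 10532, a median of 12612 and a highest of 17366. The lowest DMSO value is that of array 3, while the other 7 DMSO arrays lay between 8669 and 16279. The means were 12210 ± 5288 and 13144 ± 2628 (SD, n = 8 each). The log2 difference of 0.38 ± 0.43 (SE; exact permutation p = 0.639) became -0.06 ± 0.16 without that array (exact permutation p = 0.719) and 0.02 without mefloquine 1 and 2 as well.

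Calr encodes calreticulin, a soluble chaperone that binds glycoproteins and calcium. Its lowest, median and highest intensities were 1739, 12347 and 14243 with DMSO and 9402, 12237 and 15346 with mefloquine. As for Hsp90b1, DMSO control 3 was the low array, the other 7 lying between 9486 and 14243. The log2 difference was 0.35 ± 0.34 (SE; exact permutation p = 0.511), and -0.00 ± 0.13 without it (exact permutation p = 0.977). Mefloquine 1 and 5 lay above every DMSO array, and the groups otherwise overlapped.

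Hyou1, a large relative of Hsp70 that helps BiP exchange its nucleotide, was read by 2 probe sets of unequal brightness. By rc_AI009098_at the lowest, median and highest values were 3187, 4928 and 7170 with DMSO and 3688, 5037 and 7159 with mefloquine, with no mefloquine array outside the DMSO range. The log2 difference was -0.00 ± 0.17 (SE; exact permutation p = 0.992). The dim probe set U41853_at went from a median of 659 to a median of 449, with DMSO values from -209 to 875 and mefloquine values from -79.4 to 742. It was at the floor on DMSO arrays 3 and 8 and mefloquine arrays 3, 5 and 8, so its fold change is understated.

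The log2 difference of U41853_at was -0.33 ± 0.17 (SE; exact permutation p = 0.0918), the lowest of the 13. It was -0.41 ± 0.16 without DMSO control 3 (exact permutation p = 0.0309; limma adjusted p = 0.516) and -0.49 without mefloquine 1 and 2 as well (limma adjusted p = 0.467). It was below 0 under all alternatives that could be fitted to it and was called under none of them. The per-array difference between the pair of Hyou1 probe sets did not pass between the treatments (0.33 on the log2 scale, exact permutation p = 0.27; 0.48 and p = 0.0934 without DMSO control 3). Adjusted over the 11 pairs compared, these are 0.6 and 0.514.

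**Figure D3:**
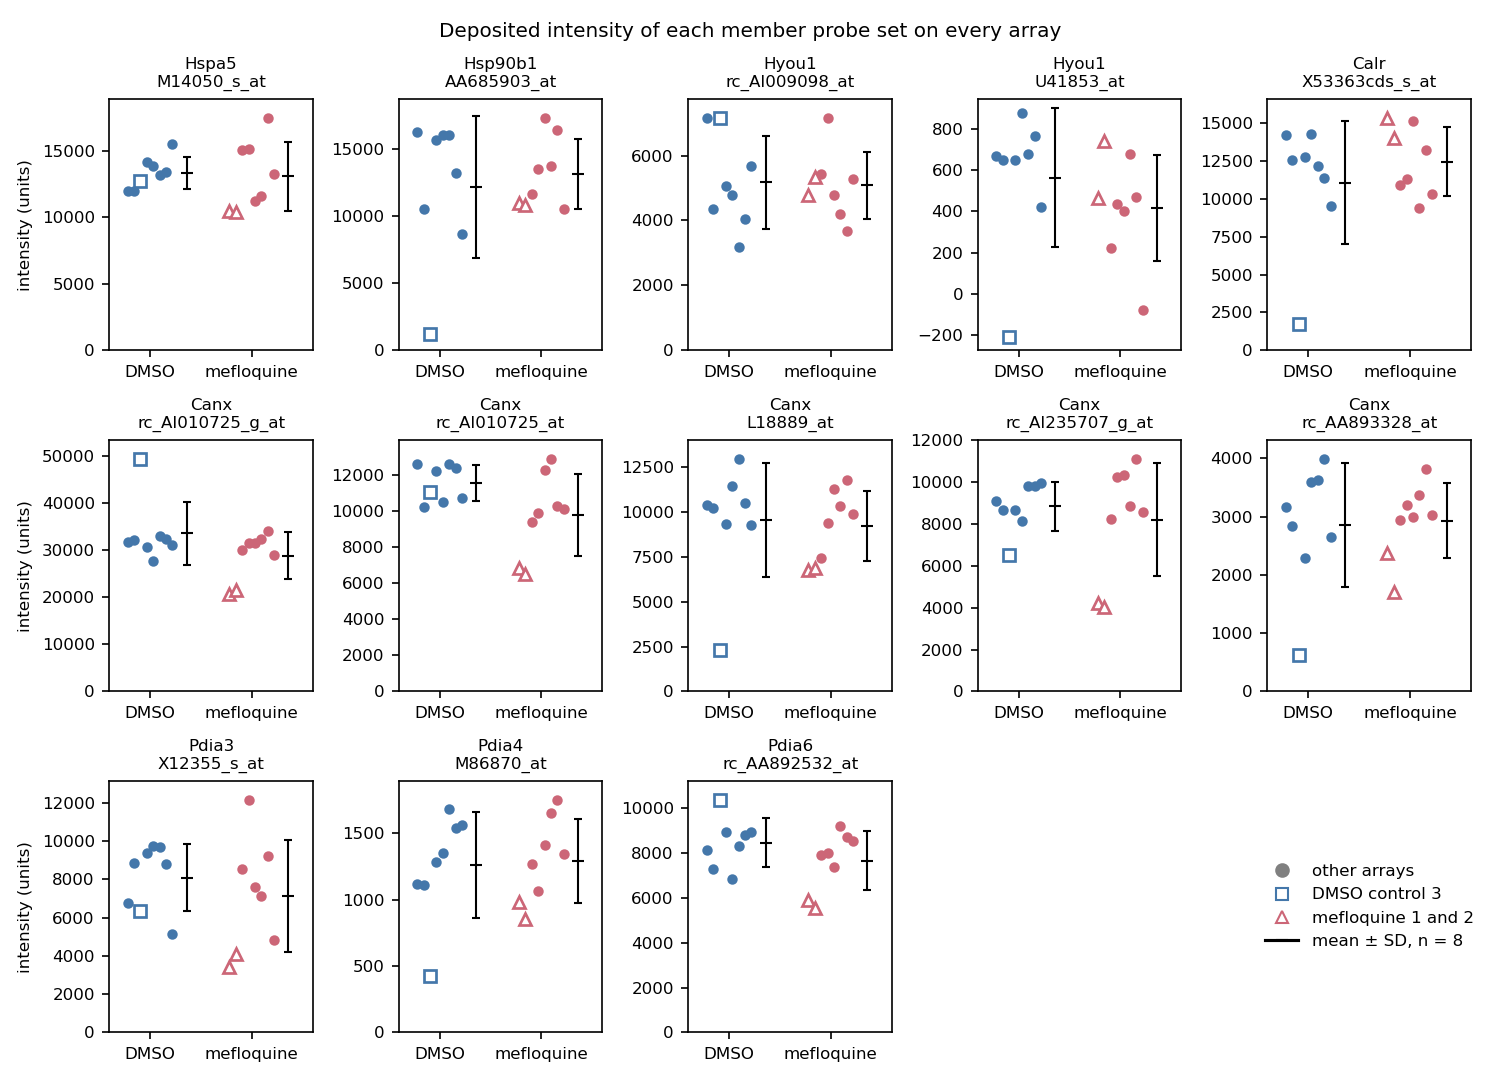
Deposited intensity (linear units, some of them negative as deposited) of each of the 13 probe sets on the 8 DMSO (blue) and 8 mefloquine (red) arrays, with the mean and SD beside each group; DMSO control 3 is an open square and mefloquine 1 and 2 are open triangles. The groups overlap for each of the 13, and how often groups overlap among all tested probe sets was not counted. DMSO control 3 is far below its group for Hsp90b1 and Calr (1188 and 1739), and the triangles lie at the bottom of their group for most Canx and isomerase probe sets.

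Canx encodes calnexin, the membrane-bound relative of calreticulin, and its 5 probe sets allow one gene to be read several times. By the brightest, rc_AI010725_g_at, the lowest, median and highest intensities were 27595, 32019 and 49442 with DMSO and 20703, 30725 and 33977 with mefloquine. By rc_AI010725_at they were 10217, 11643 and 12621 with DMSO and 6506, 9995 and 12922 with mefloquine. Mefloquine 1 and 2 were below every DMSO array by the first, and mefloquine 1, 2, 3, 4 and 8 by the second, which had the smallest exact permutation p of the 13 probe sets on all 16 arrays (0.0539, and 0.0642 without DMSO control 3). The groups overlapped by all 5.

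On all arrays the log2 differences were -0.22 for rc_AI010725_g_at, -0.27 for rc_AI010725_at, -0.18 for rc_AI235707_g_at, 0.05 for L18889_at and 0.17 for rc_AA893328_at. Thus 3 were below 0 and 2 above it, and none passed (limma adjusted p from 0.982 to 0.998). The first 2 carry the same accession in their names, so they are not independent readings.

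The pair of probe sets with differences above 0 was the pair on which DMSO control 3 was lowest. By L18889_at this array read 2302, where the other 7 DMSO arrays lay between 9254 and 12964, which is 21.8% of their mean. By rc_AA893328_at it read 618 against 2299 to 3997, or 19.5% of their mean. By rc_AI010725_g_at it was instead the highest DMSO array, at 49442 against 27595 to 32906, or 158% of their mean. By rc_AI010725_at, at 11068, it lay within the range of the others, and by rc_AI235707_g_at it was the lowest at 6507, or 71.0% of their mean.

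The probe sets thus disagreed on DMSO control 3. The log2 ratio of rc_AI010725_g_at to rc_AA893328_at was 6.32 on DMSO control 3 and 2.94 to 3.74 on the other 15 arrays, and that to L18889_at was 4.42 against 1.27 to 2.02. Where each probe set lies along the transcript was not used here, and the part of the 3′ over 5′ ratio in these values was not tested. Without this array all 5 differences were below 0, at -0.14, -0.28, -0.25, -0.22 and -0.13 in the order given above. Without mefloquine 1 and 2 as well they were 0.01, -0.11, 0.06, -0.09 and 0.04.

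Treatment differences were compared between the probe sets of Canx for all 10 pairs, and of Hyou1 for 1 pair. Of these 11 comparisons 0 passed after Benjamini-Hochberg adjustment and 0 had an unadjusted p under 0.05. The 10 Canx pairs reuse the same probe sets, so they are not independent. Probe sets of genes other than the members were not compared in this way. The exact permutation p-values ran from 0.128 to 0.851 on all arrays and from 0.0746 to 0.924 without DMSO control 3. The largest disagreement in the treatment difference, 0.44 on the log2 scale, was between rc_AI010725_at and rc_AA893328_at (exact permutation p = 0.128, adjusted p = 0.6), and it was 0.16 without DMSO control 3.

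**Figure D4:**
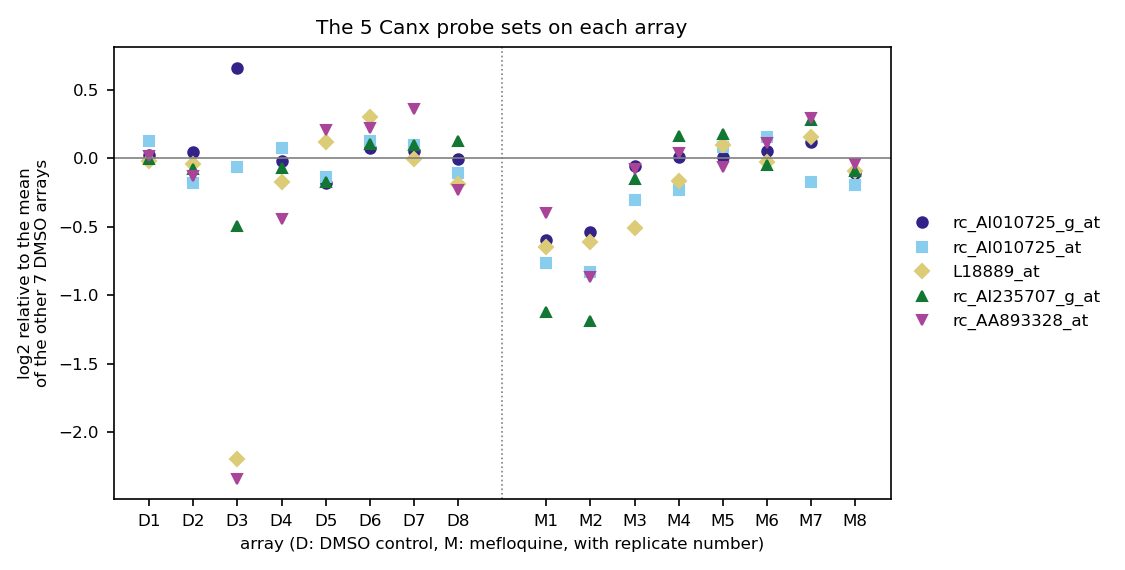
The 5 Canx probe sets on each array, as log2 intensity relative to that probe set's mean over the 7 DMSO arrays other than DMSO control 3; D and M mark DMSO and mefloquine arrays with their replicate numbers. On D3 the probe sets spread from -2.34 to 0.66, while on M1 and M2 all 5 lie below 0.

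Pdia3, the isomerase that works with calnexin and calreticulin on glycoproteins, had lowest, median and highest intensities of 5142, 8822 and 9739 with DMSO and 3432, 7371 and 12170 with mefloquine. Mefloquine 1, 2 and 8 lay below every DMSO array, and mefloquine 4 above. Its log2 difference was -0.26 ± 0.24 (SE; exact permutation p = 0.315), and -0.31 without DMSO control 3, with the widest interval of the members there, from a 0.56-fold to a 1.17-fold level. Without mefloquine 1 and 2 as well it was -0.04.

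Pdia4, an isomerase with several thioredoxin-like domains, had intensities of 424, 1317 and 1685 (lowest, median, highest) with DMSO and 857, 1310 and 1756 with mefloquine. The lowest DMSO value, that of array 3, was at the floor. Its log2 difference was 0.09 ± 0.24 (SE; exact permutation p = 0.779), and -0.12 ± 0.16 without that array (exact permutation p = 0.482). It was 0.04 without mefloquine 1 and 2 as well.

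Pdia6, an isomerase that also binds the stress sensor IRE1, had intensities of 6863, 8552 and 10394 with DMSO and 5551, 7968 and 9218 with mefloquine. Here DMSO control 3 was the highest of its group, and mefloquine 1 and 2 were below every DMSO array. The log2 difference was -0.15 ± 0.13 (SE; exact permutation p = 0.205). It was -0.11 without DMSO control 3 and 0.02 without mefloquine 1 and 2 as well.

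DMSO control 3 lay below the other 7 DMSO arrays for 6 of the 13 probe sets and above them for 3, where 39.8% and 24% of all tested probe sets did so. For 5 of the 13 it was more than 1 log2 unit below the mean of the other 7, as for 20.4% of all tested. The 5 were those of Hsp90b1, Calr and Pdia4 and the 2 of Canx named above, with differences from -1.68 to -3.50.

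Mefloquine 1 and 2 moved together for these genes. Both lay below the other 6 mefloquine arrays for 9 of the 13 probe sets, which belong to Hspa5, Canx (all 5), Pdia3, Pdia4 and Pdia6, and above them for 0, against 18.7% and 15.2% of all tested probe sets. The median of their difference from the other 6 was -0.54 over the members and -0.02 over all tested probe sets, on the log2 scale. The lowest was -1.21, for Canx by rc_AI235707_g_at, where they averaged 43.0% of the other 6. Calr was 0.34 higher on them and Hyou1 0.32 (U41853_at) and 0.02 (rc_AI009098_at) higher. Their 3′ over 5′ ratios for GAPDH, 1.26 and 1.27, lay inside the range of the other arrays. For beta-actin, at 1.70 and 1.95, only DMSO control 3 (21.3), DMSO control 8 (2.67) and mefloquine 8 (2.58) were higher. The next lower array was mefloquine 6, at 1.55. The labels give these samples no condition of their own, and a part of RNA quality in these values was not tested.

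**Figure D5:**
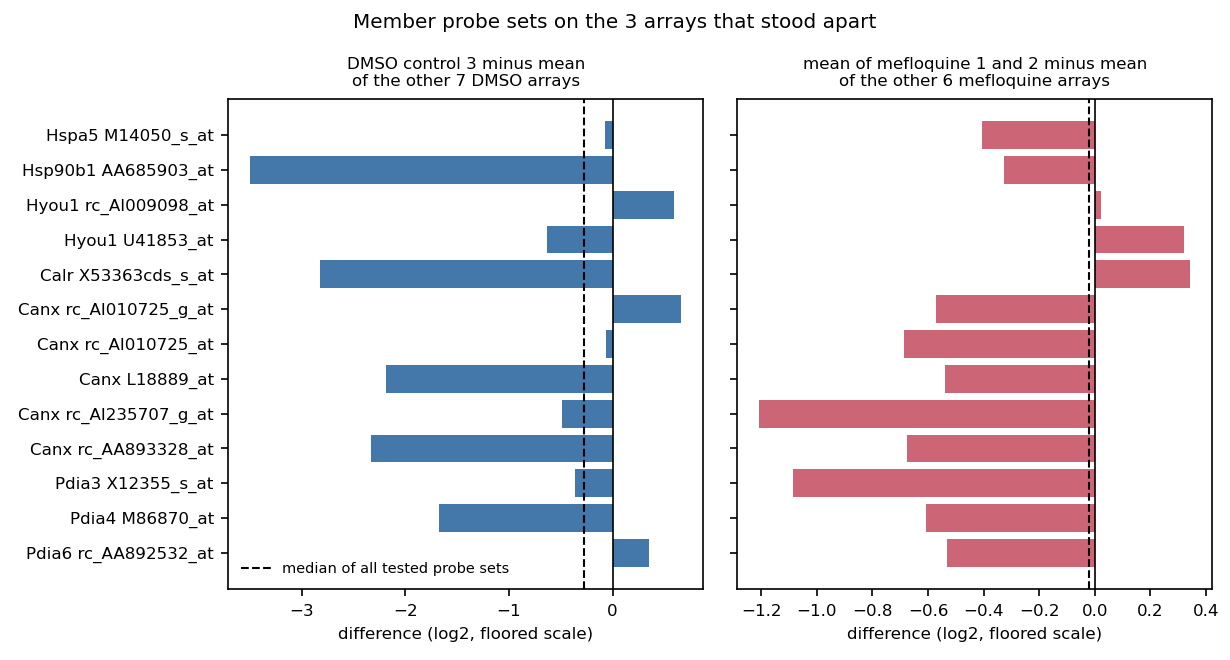
Deviation, on the floored log2 scale, of DMSO control 3 from the mean of the other 7 DMSO arrays (left, blue) and of the mean of mefloquine 1 and 2 from the mean of the other 6 mefloquine arrays (right, red) for the 13 probe sets; the dashed line is the median over the 545 tested probe sets. On the left the bars run from -3.50 for Hsp90b1 to 0.66 for 1 Canx probe set, and on the right 10 of the 13 bars are below 0.

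Other genes of the endoplasmic reticulum were sparse on the array. Of 79 further genes in 5 lists (folding factors, stress sensors and transcription factors, degradation, translocation and glycosylation, and calcium handling), 5 had a probe set and 4 were tested. The lists for degradation and calcium handling had no gene on it. Of the 4 tested, 1 rose, Ddit3, and the other 3 did not pass. The prolyl isomerase Ppib, by its brighter probe set, differed by -0.06 ± 0.21 (log2, SE), and by -0.24 ± 0.14 without DMSO control 3. Fkbp2, another prolyl isomerase, differed by -0.27 ± 0.17 by its brighter probe set, and by -0.13 ± 0.11 without that array. Dad1, a subunit of the enzyme that adds sugars to new chains, differed by -0.14 ± 0.16 by its brighter probe set and by 0.06 ± 0.11 by the other. Without that array the first was -0.27 ± 0.11, with an interval from -0.50 to -0.04 but a limma adjusted p of 0.516. Serpinh1, a collagen chaperone, was above the floor on 0 arrays.

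Ddit3, encoding CHOP, was the one tested gene of the stress factor list. Its lowest, median and highest intensities were 272.5, 584 and 1686 with DMSO and 1745, 2851 and 4791 with mefloquine, so the groups did not overlap. Its log2 difference was 2.22 ± 0.26 (SE, limma adjusted p = 9.28e-05). Whether this difference was larger than that of the chaperones was tested on the log2 ratio of Ddit3 to each member probe set on each array, a test added after the values were known. The ratio rose by 1.84 to 2.55 log2 units for the 13 probe sets, and 13 of 13 passed after adjustment over them (exact permutation p from 0.000155, the smallest that 8 against 8 arrays can give, to 0.0191). The least separated were Hsp90b1 (1.84) and Calr (1.87). Without DMSO control 3, which had the highest Ddit3 value of its group at 1686, the rise was 2.35 to 2.83 and all 13 had the exact permutation p of 0.000155. The values of Ddit3 itself are shared by the 13 comparisons, so the comparisons are not independent. They largely restate the rise of Ddit3, which was known beforehand, so the 13 of 13 is not a result about the chaperones. How many of all tested probe sets would pass the same comparison with Ddit3 was not counted. On 2 DMSO arrays Ddit3 did not exceed the floor, so its rise is understated.

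The array-to-array pattern of each member was compared with 334 other tested genes, each by its brightest probe set, as a description over arrays that share their labels, scaling and RNA quality. The highest Pearson correlations over the 16 arrays were 0.982 for Hsp90b1 with Map3k12, 0.963 for Calr with Eef2 and 0.926 for Pdia4 with Ppib. Without DMSO control 3 these were 0.820, 0.752 and 0.810. For Calr the second most alike gene, Stip1, went from 0.952 to 0.411, so that likeness rested mostly on 1 array. Pdia6 was most like Cox7a2 (0.920, and 0.914 without that array) and Ndufb5 (0.915 and 0.895). Canx was most like Nme2 (0.910 and 0.873) and Ndufa6 (0.895 and 0.803), Pdia3 most like Blmh (0.839 and 0.855) and Maoa (0.806 and 0.805). Hspa5 was most like Rfc4 (0.701 and 0.737) and Ndufb6 (0.678 and 0.683), and Hyou1 most like Hsph1 (0.715 and 0.642) and Actb (0.640 and 0.554). The next after Map3k12 was Me1 for Hsp90b1 (0.961 and 0.704), and after Ppib it was Acot7 for Pdia4 (0.922 and 0.783). Mefloquine 1 and 2 lay below the other 6 mefloquine arrays for Hspa5, Canx, Pdia3, Pdia4 and Pdia6. Correlations without these arrays were not computed, and their part in the likenesses was not tested.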

How the data were processed

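Per the labels, 10 µg of total RNA went onto each of 16 Affymetrix arrays. Each deposited value is a linear intensity, 1 per probe set and array, which the authors scaled with standard chip factors, per the labels; the sources used here name neither software nor target value. Of the values 26.9% were at or below 0. A floor of 426.5 (25th percentile of positive intensities) replaced lower values and log2 was taken, so changes of dim probe sets are understated. Those exceeding it on 8 or more arrays (545 of 972; 59 control probe sets left out) were tested with limma 3.58.1 in R 4.3.3, with treatment as the only term and calls at a Benjamini-Hochberg adjusted p under 0.05. Exact permutation tests used Python 3.11.15. The labels do not say that samples were separate cultures: p-values reflect only the spread among samples, possibly technical. Their number, 8 per group, limits the precision. At most 0.097% of values were identical between any 2 arrays. The members and lists were chosen with earlier results of these data known. Named genes were all members, up to 4 of each other list with the smallest p, and for each member the 2 most correlated genes. The scripts were tested on simulated data. Alternatives are given in the closing section.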

Additional observations from a re-analysis of the deposited data

Results flagged for a closer look

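Within each group of 8 arrays the highest and lowest log2 value of each of the 13 probe sets was set against the value next to it (Dixon's test). A value stood apart in 6 of the 26 tests (23.1%), each time on DMSO control 3, so these tests are not independent. Chance alone gives about 5%, and over all 545 tested probe sets 14.5% of such tests stood apart. DMSO control 3 stood apart in this way for 21.3% of the 545 probe sets. It lay below the other 7 DMSO arrays for Hsp90b1 at 10.214 (others 13.08 to 13.99), Calr at 10.764 (13.21 to 13.80), Canx by L18889_at at 11.169 (13.18 to 13.66) and by rc_AA893328_at at 9.271 (11.17 to 11.96), and, at the floor, Pdia4 at 8.736 (10.12 to 10.72). It lay above them for Canx by rc_AI010725_g_at at 15.593 (14.75 to 15.01). The 3′ over 5′ ratios of this array were 21.3 (beta-actin) and 4.62 (GAPDH), and their part in these values was not tested.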

How the results depend on the processing

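No member probe set was called under any of the 29 alternatives, with limma adjusted p-values from 0.467 to 0.999. Of 374 differences 343 kept their sign; 31 turned, 18 of them outside the fits that left out 1 array, and the cause was not tested. With the floor at the 40th percentile Pdia4 was at -0.0255. Without DMSO control 3 and mefloquine 1 and 2, Hspa5 was at 0.0445, Hyou1 (rc_AI009098_at) at 0.0661, Calr at -0.0897, Pdia6 at 0.0228 and Canx at 0.0057 (rc_AI010725_g_at), -0.0883 (L18889_at) and 0.0562 (rc_AI235707_g_at). In replicates 6 to 8 alone, Hyou1 was at 0.0564, Calr at -0.0119, Canx (L18889_at) at -0.0253, Pdia4 at -0.0188 and Pdia6 at 0.0225. With the GAPDH ratio as a covariate, which DMSO control 3 dominates, Hsp90b1 was at -0.0564, Hyou1 at 0.0754, Canx at -0.21 (L18889_at) and -0.11 (rc_AA893328_at) and Pdia4 at -0.10. With 1 array left out the members' median ran from -0.13 to -0.01, Hsp90b1 from -0.057 to 0.48, Hyou1 from -0.10 to 0.0717 (rc_AI009098_at) and -0.41 to -0.26 (U41853_at), Calr from -0.0036 to 0.43, Canx by L18889_at from -0.22 to 0.13 and by rc_AA893328_at from -0.13 to 0.27, and Pdia4 from -0.12 to 0.17.

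Over all probe sets 7 were called (limma), and 4 to 8 with 1 array left out. There were 4 with quantile normalization, 4 with the floor at the 10th and 4 at the 40th percentile, 3 with all arrays required above the floor (351 tested) and 1 in replicates 6 to 8 alone (fewer arrays). Of the other lists' genes 0 instead of 1 was called with all arrays above the floor, which leaves out Ddit3, and 0 in replicates 6 to 8 alone. With the replicate number as a block 8 probe sets were called, and 0 members. Same-numbered arrays correlated in their deviations at 0.0569 to 0.188 for numbers 1 to 4 and at 0.447 to 0.593 for numbers 5 to 8. Of the 8, 2 correlated best with their own number. The numbers were not taken as pairs, and whether same-numbered arrays shared a processing step was not tested. U41853_at could not be tested with the floor at the 40th percentile, nor could it or Pdia4 with all arrays above the floor. Array number and signal near the floor limit what could be seen.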
